A study of Mus musculus with 8 samples.

Results

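Interleukin-6 (IL-6) and interleukin-10 (IL-10), with their receptors and close relatives, were examined in Gr1+Cd11b+ cells sorted from the spleen, called immature myeloid cells (IMCs) in the study, after culture with or without TFF2. The genes were *Il6*, *Il6ra*, *Il6st*, *Osm*, *Lif*, *Il10*, *Il10ra* and *Il10rb*, and a probe set was taken when its only gene symbol in the annotation of the array was one of these 8. The rule found 13 probe sets of 7 genes among 22626 probe sets and 12393 genes, and none for *Osm*, so oncostatin M was not analysed here. The rule used gene names and no measured value.

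All cells came from 4 male Tff2-/- mice on a C57BL/6 background, 16 weeks old, which drank 3% DSS, a chemical that injures the colon, for 5 days and were killed 14 days after it was stopped. The sorted cells of each mouse were divided between both cultures, which ran for 7 days. One held GM-CSF alone (Csf2, 5 nM in the labels), a growth factor of myeloid cells, and the other held the same GM-CSF with 3 µM mouse recombinant TFF2 (rTFF2). Thus every culture lacked its own *Tff2* and received GM-CSF, and no freshly sorted or GM-CSF-free sample was part of the comparison. The study's methods give another dose for GM-CSF than the labels do. Values are GCRMA signals of Affymetrix mouse arrays on the log2 scale, 1 array per culture and n = 4 mice in each group, and the small number of arrays limits the precision of each value.

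IL-6 binds the receptor chain encoded by *Il6ra*, and the pair then engages gp130, encoded by *Il6st*, the signalling chain that LIF and oncostatin M also use. IL-10 binds a receptor made of the chains encoded by *Il10ra* and *Il10rb*, and the latter chain also serves other cytokines, IL-22 among them. Both receptors act through Janus kinases and the transcription factor STAT3. In myeloid cells IL-6 is known as an inflammatory cytokine, and IL-10 is known to restrain the output of inflammatory cytokines.

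With rTFF2, *Il6*, *Il6ra* and *Il10rb* rose and *Il6st* fell, each in 4 of 4 mice. By the brightest probe set of each gene, *Il6* was 6.24-fold higher, *Il10rb* 2.03-fold higher, *Il6ra* 1.44-fold higher and *Il6st* at 0.53 of its control level. *Il10ra* did not pass the test, while *Il10* and *Lif* lay at background in both groups. Of the 13 probe sets, 3 rose, 2 fell and 8 did not pass, by limma with the mouse as a block and Benjamini-Hochberg adjustment over all 22626 probe sets at a threshold of 0.05. Over the whole array 25.7% of probe sets passed, 13.7% higher and 12% lower, and 21.8% passed without the mouse block, so the number of members called is a description of these genes and not a feature of the group. Without mouse 1, 3 or 4 only 1 probe set fell, and without mouse 3 only 2 rose. Because each array measured a whole culture, fewer cells of a kind and less RNA per cell cannot be told apart in any of these values.

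A background level of 3.42 on the log2 scale was taken from 39 genes of other tissues, and 7 of the 13 probe sets had a group mean above it. The arrays correlated at 0.985 to 0.998 with each other over all probe sets and their medians lay between 4.09 and 4.20. *Itgam*, which encodes CD11b, was high in both groups, with means of 12.35 and 12.72, and *Tff2* lay at background in both (2.45 and 2.28). *Ly6g*, one of the genes behind the Gr-1 antigen, had no probe set of its own symbol and was not checked. As a sign of RNA quality, the 3′ signal of *Actb* exceeded its 5′ signal by 0.42 to 0.62 on the log2 scale with GM-CSF alone and by 0.66 to 0.74 with rTFF2, so this measure moved with the groups. A fit with it as a covariate therefore cannot fully tell RNA quality and treatment apart.

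**Figure D1:**
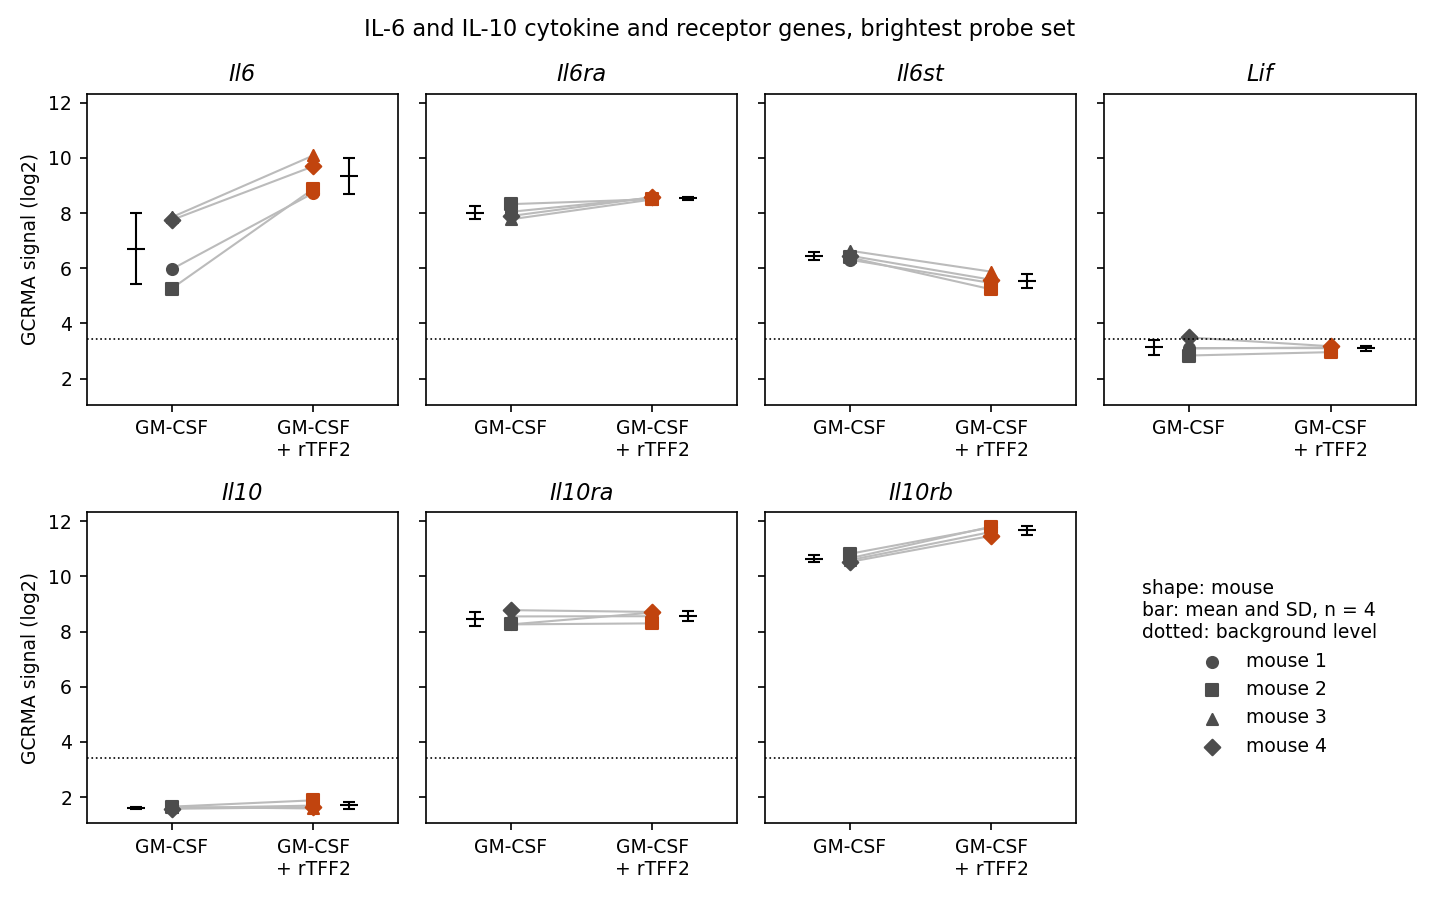
GCRMA signal (log2 scale) of the brightest probe set of 7 genes in each culture, where lines connect cultures from the same animal and symbols tell the mice apart, with bars for the mean and SD (n = 4), and the background level of 3.42 dotted. *Il6*, *Il6ra* and *Il10rb* lie higher and *Il6st* lower with rTFF2 in each mouse, and *Il10* lies below the dotted line in every culture.

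*Il6* lies on chromosome 5 (GRCm38.p6, 30013114 to 30019975). Its promoter is shown because *Il6* had the largest change among these genes and because transcription factors known to act on it are described with the pathway genes. The run gives the 250 bases before the RefSeq start (plus strand, chr5:30012864-30013113), with matches to the searched motifs in capitals.

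Il6 promoter: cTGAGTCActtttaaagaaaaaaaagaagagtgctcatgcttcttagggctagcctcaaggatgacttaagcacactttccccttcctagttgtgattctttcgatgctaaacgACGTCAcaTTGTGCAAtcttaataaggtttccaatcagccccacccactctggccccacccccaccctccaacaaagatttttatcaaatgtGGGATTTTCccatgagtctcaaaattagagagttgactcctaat

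Reading from the left, the capitals mark AP-1 (TGANTCA), the cyclic AMP element (TGACGT), C/EBP (TTGCNNAA) and NF-kB (GGGANTTTC), and the cyclic AMP and C/EBP matches are on the opposite strand. Each motif was searched on both strands and the matches do not overlap. Among 32851 promoter windows of this length, 6.75% held the AP-1 motif, 6.47% the cyclic AMP element, 9.56% the C/EBP motif and 0.941% the NF-kB motif. A match to a STAT motif (TTCNNNGAA), found in 7.02% of windows, was not in this one. The windows of *Il6ra* (chromosome 3, minus strand) and *Il6st* (chromosome 13, plus strand) matched none of the 5 motifs. These are matches of letters and no binding was measured.

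The log2 signals of *Il6* with GM-CSF alone were 5.96, 5.26, 7.85 and 7.75 in mice 1 to 4. With rTFF2 they were 8.73, 8.88, 10.09 and 9.70. Mice 3 and 4 had the higher signal in both cultures, and the groups did not overlap. The mean went from 6.71 ± 1.29 (SD, n = 4) to 9.35 ± 0.65 (SD, n = 4). The log2 change was 2.64 with a standard error of 0.25 (adjusted p = 6.6e-04 from limma), or 6.24-fold with a 95% confidence interval of 4.17 to 9.34. Among the 12393 genes its rise held place 41. The changes in mice 1 to 4 were 2.76, 3.61, 2.24 and 1.95 on the log2 scale, so mouse 2, with the lowest control signal, had the largest one. With the *Actb* 3′ to 5′ difference as a covariate the *Il6* change was 1.47, or 2.77-fold (adjusted p = 0.0058). The part of RNA quality in the result was not tested beyond this fit.

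*Il6ra*, which encodes the IL-6 binding chain, had log2 signals of 8.05, 8.32, 7.77 and 7.89 in mice 1 to 4 with GM-CSF alone by its brightest probe set. With rTFF2 they were 8.56, 8.50, 8.50 and 8.58. The rTFF2 cultures lay within a narrow span above all controls, and the SD was 0.24 in the controls and 0.04 with rTFF2. The log2 change was 0.52 with a standard error of 0.10 (adjusted p = 0.011 from limma), and it ran from 0.18 in mouse 2 to 0.72 in mouse 3. Without mouse 3 it was 0.46 with an adjusted p of 0.0502, just over the threshold. With the *Actb* covariate it was 0.92 (adjusted p = 0.020). The second *Il6ra* probe set, dimmer at means of 3.95 and 4.12, had a log2 change of 0.18 with a 95% confidence interval of -0.08 to 0.43 and did not pass (adjusted p = 0.28).

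*Il6st*, which encodes gp130, moved the other way. Its brightest probe set stood at 6.31, 6.39, 6.64 and 6.46 with GM-CSF alone in mice 1 to 4. With rTFF2 the log2 signals were 5.46, 5.23, 5.88 and 5.58. Every rTFF2 culture lay below every control culture. The log2 change was -0.91 with a standard error of 0.08 (adjusted p = 6.6e-04 from limma), from -1.16 in mouse 2 to -0.76 in mouse 3. With the *Actb* difference as a covariate it was -0.66 and did not pass (adjusted p = 0.057).

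The other probe sets of *Il6st* were dimmer. One went from 4.07 ± 0.21 (SD, n = 4) to 3.60 ± 0.16 (SD, n = 4), which is -0.47 on the log2 scale with a standard error of 0.13 (limma, adjusted p = 0.034), with changes of -0.35, -0.10, -0.90 and -0.53 in mice 1 to 4. It fell in each mouse, but the call was lost without mouse 1, 3 or 4 (adjusted p = 0.078, 0.096 and 0.11). With 32 added to the linear signals its log2 change was -0.15 and with the *Actb* covariate it was -0.91, and neither passed. The last probe set lay at background in all 8 cultures.

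Both chains of the IL-6 receptor therefore changed unequally within each mouse. The log2 change of *Il6ra* less that of *Il6st*, by their brightest probe sets, was 1.36, 1.33, 1.48 and 1.56 in mice 1 to 4, with a mean of 1.43 ± 0.10 (SD, n = 4). The values compare changes and not levels, since signals of different probe sets are not on one scale. They are given as a description and carry no test.

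*Lif*, a cytokine that signals through gp130 and the receptor chain of *Lifr*, was at background. Its brighter probe set gave 3.11, 2.84, 3.09 and 3.49 with GM-CSF alone and 3.10, 2.96, 3.13 and 3.17 with rTFF2, and only the control culture of mouse 4 was above the background level. The log2 change was -0.04 with a 95% confidence interval of -0.25 to 0.17 (adjusted p = 0.78 from limma). The dimmer one had means of 1.81 and 1.63, lower in 4 of 4 mice without overlap, and did not pass (adjusted p = 0.11). It was 1 of 6 member probe sets whose groups did not overlap, 3 higher and 3 lower, where 25.5% of all probe sets did not overlap.

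*Il10* was the dimmest of the brightest probe sets and no level above background was measured in any culture. The log2 signals were 1.59, 1.65, 1.64 and 1.58 with GM-CSF alone. With rTFF2 they were 1.69, 1.88, 1.59 and 1.63. The groups overlapped, and the log2 change of 0.08 did not pass (95% confidence interval -0.10 to 0.26, adjusted p = 0.48 from limma). Below background a signal does not follow the RNA, so this interval does not bound a change in *Il10* itself.

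The receptor chains for IL-10 were both well above background. *Il10ra*, the chain that binds IL-10, had log2 signals of 8.26, 8.26, 8.55 and 8.78 with GM-CSF alone. With rTFF2 they were 8.69, 8.30, 8.56 and 8.71. The groups overlapped, and 1 mouse, mouse 1, moved by more than the others (0.43, against 0.04, 0.01 and -0.06 in mice 2 to 4). The log2 change was 0.10 with a 95% confidence interval of -0.13 to 0.33 (adjusted p = 0.49 by limma). The remaining *Il10ra* probe sets lay at background in both groups.

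*Il10rb*, the accessory chain, had log2 signals of 10.66, 10.82, 10.59 and 10.53 with GM-CSF alone. With rTFF2 they were 11.81, 11.78, 11.62 and 11.47. All rTFF2 cultures were above all controls, and the changes were 1.15, 0.96, 1.02 and 0.95 in mice 1 to 4. The log2 change was 1.02 with a standard error of 0.07 (adjusted p = 2.7e-04 from limma), or 2.03-fold with a 95% confidence interval of 1.81 to 2.28. With the *Actb* covariate it was 1.03 on the log2 scale (adjusted p = 0.017). The change of *Il10rb* less that of *Il10ra* was 0.72, 0.92, 1.02 and 1.01 in mice 1 to 4, with a mean of 0.92 ± 0.14 (SD, n = 4), again as a description.

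**Figure D2:**
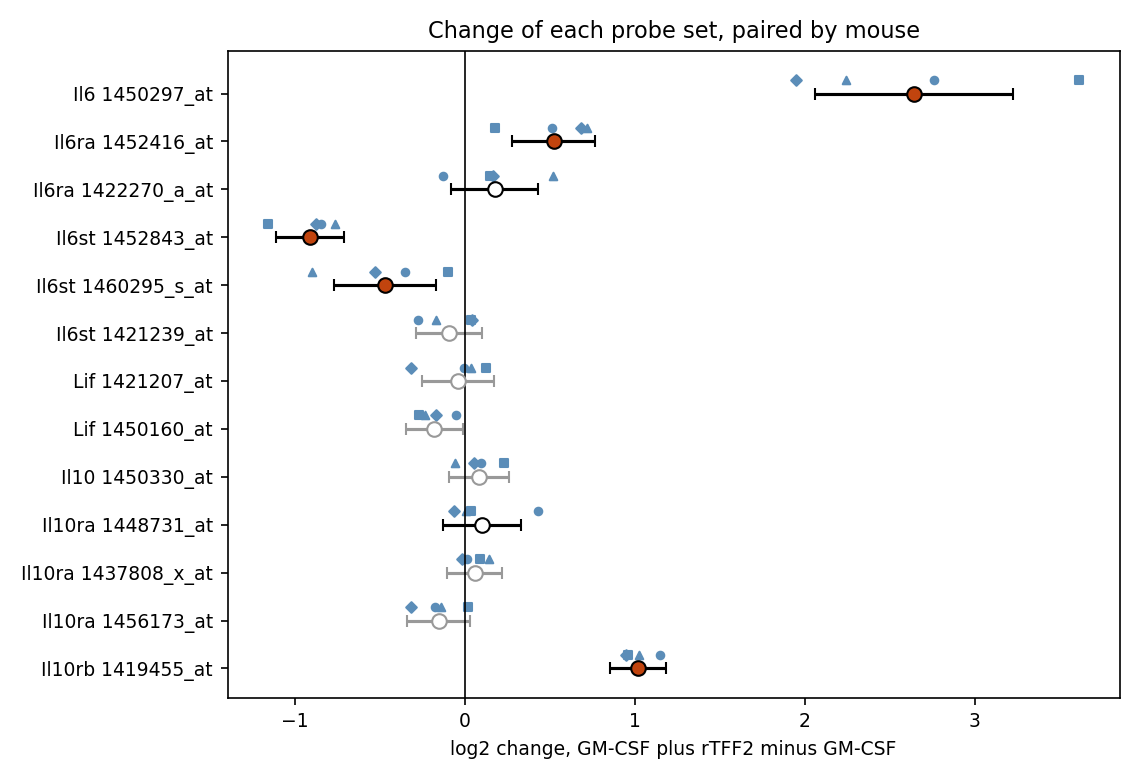
Log2 change with rTFF2 (less GM-CSF alone) of each of the 13 probe sets with its 95% confidence interval from the paired limma fit, filled where the adjusted p was under 0.05 and grey where both group means lay at background, and small symbols above it for the change in each mouse (circle, square, triangle and diamond for mice 1 to 4). The *Il6* interval runs from 2.06 to 3.22, that of *Il10rb* from 0.85 to 1.19, and that of the brightest *Il6st* probe set from -1.11 to -0.71.

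Other genes of these pathways were taken from 6 lists, in which 61 genes had a probe set of their own. Of these 24 rose, 9 fell and 28 did not pass, with a median log2 change of 0.21. Over all 12393 genes 27.7% passed, 14.5% higher and 13.3% lower, and the median was -0.03. Among the genes above background 41.3% passed. With the *Actb* covariate, 6 of the listed genes rose and 2 fell, and the part of RNA quality in the calls below was not tested beyond that fit.

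Of 9 measured cytokines and receptors that share gp130 or belong to its family, 1 rose and 2 fell, and 6 lay at background, among them *Osmr*, the receptor of oncostatin M. With the *Actb* covariate 0 of them rose and 1 fell by limma, as at an unadjusted p under 0.05. *Lifr*, the receptor chain that pairs with gp130 for LIF, went from 6.14 ± 0.68 to 4.31 ± 0.52 (SD, n = 4 each), which is -1.83 on the log2 scale with a standard error of 0.24 (limma, adjusted p = 0.0023), lower in 4 of 4 mice. A second *Lifr* probe set fell by 0.79 on the log2 scale, and 2 of its 3 probe sets passed as lower. *Ebi3*, which encodes a subunit shared by IL-27 and IL-35, rose by 0.72 (adjusted p = 0.0032). *Clcf1*, a gp130 cytokine, had a change of -0.54 and passed narrowly (adjusted p = 0.044), and its other probe sets and the fit without the mouse block (0.089) did not pass. Of the IL-10 family, *Il20* and *Il24* were measured and both lay at background.

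Of 10 measured transducers, 4 rose and 3 fell, against 1 and 0 by limma with the *Actb* covariate (2 and 1 at an unadjusted p under 0.05). *Stat3*, the factor that both receptors activate, went from 8.50 ± 0.19 to 9.15 ± 0.11 (SD, n = 4 each), a log2 change of 0.65 (adjusted p = 0.0014 from limma), and a second probe set gave 0.83. Of the 3 *Stat3* probe sets, 2 passed as higher. *Gab1*, a docking protein downstream of gp130, rose by 2.02 from a control mean of 3.68, with all of its 3 probe sets higher. *Stat5b* rose by 0.60 while *Stat5a* fell by 0.63, both factors used by the GM-CSF receptor, and in each case 1 of 2 probe sets passed. Among the kinases, *Jak2* fell by 0.47, *Tyk2* fell by 0.35 (adjusted p = 0.026, and 0.11 without the mouse block) and *Jak1* rose by 0.31 (2 of 3 probe sets).

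Of 9 genes of feedback and receptor shedding, 4 rose and 2 fell, and with the *Actb* covariate 0 passed by limma in either direction (3 higher and 1 lower at an unadjusted p under 0.05). *Socs3*, whose product binds gp130 and limits IL-6 signalling, rose by 0.81 from a mean of 11.55 to 12.36 (adjusted p = 0.0016 from limma), with 3 of 3 probe sets higher. *Socs1* rose by 0.80 from a control mean of 3.46, near background, and *Pias3*, an inhibitor of STAT3, rose by 0.80 at 1 of its 2 probe sets. *Socs2* fell by 0.77, with both probe sets lower. *Adam17*, a protease that sheds the IL-6 receptor from the cell surface, rose by 0.40 (adjusted p = 0.0082), and the phosphatase gene *Ptpn2* fell by 0.25 (adjusted p = 0.040) at 1 of its 4 probe sets.

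Of 19 measured response genes of STAT3 and IL-10, 11 rose and 1 fell, with a median log2 change of 0.58, against 3 and 0 by limma with the *Actb* covariate (12 and 3 at an unadjusted p under 0.05). *Bcl3*, a regulator of NF-kB, rose by 1.39 (standard error 0.07, adjusted p = 1.1e-04 from limma), the AP-1 gene *Junb* by 0.92, the kinase gene *Pim1* by 0.74 and the IL-4 receptor chain *Il4ra* by 0.69 (2 of 3 probe sets), each in 4 of 4 mice. *Etv3*, a repressor that IL-10 is known to induce in macrophages, fell by 0.71 (2 of 3 probe sets). *Arg1*, which encodes arginase, had a log2 change of 2.11 with SDs of 3.90 in the controls and 0.89 with rTFF2 and did not pass (adjusted p = 0.18). That mean rests mostly on mouse 2, where *Arg1* went from 4.30 to 11.04. In mice 1, 3 and 4 it went from 10.95, 12.27 and 12.66 to 11.83, 12.83 and 12.91. *Cd163*, a scavenger receptor that IL-10 induces, lay at background. The list holds genes that many other signals change too, GM-CSF included.

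Of 17 measured regulators of *Il6* and *Il10* transcription or mRNA decay, 8 rose and 1 fell, against 3 and 1 by limma with the *Actb* covariate (6 and 1 at an unadjusted p under 0.05). *Irf4*, which is also in the marker list of dendritic cells below, fell by 1.41 (standard error 0.11, adjusted p = 3.6e-04 from limma). *Prdm1*, which encodes the repressor Blimp-1, rose by 1.98 from a control mean of 4.44. Of the factors known to act on the *Il6* promoter, *Cebpd* (0.83, 1 of 2 probe sets), *Cebpb* (0.44), *Rela* (0.29) and *Nfkbiz*, a cofactor of NF-kB (0.96), rose on the log2 scale. *Creb1*, whose product binds the cyclic AMP element, did not pass with a log2 change of -0.13 (adjusted p = 0.41 from limma), nor did *Rel* (0.13, adjusted p = 0.32) or *Sp1* (-0.15, adjusted p = 0.18). *Nfil3* rose by 1.07. Of genes for proteins that act on mRNA stability, *Zc3h12a*, a nuclease that destroys *Il6* mRNA, rose by 0.70 and *Arid5a*, which protects it, by 0.42. The decay genes *Zfp36* (0.31, adjusted p = 0.10), *Zfp36l1* (0.29, adjusted p = 0.060) and *Zfp36l2* (0.06, adjusted p = 0.59) did not pass by limma at their brightest probe sets. *Maf*, a known activator of *Il10*, lay at background in both groups, with means of 2.22 and 2.20.

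**Figure D3:**
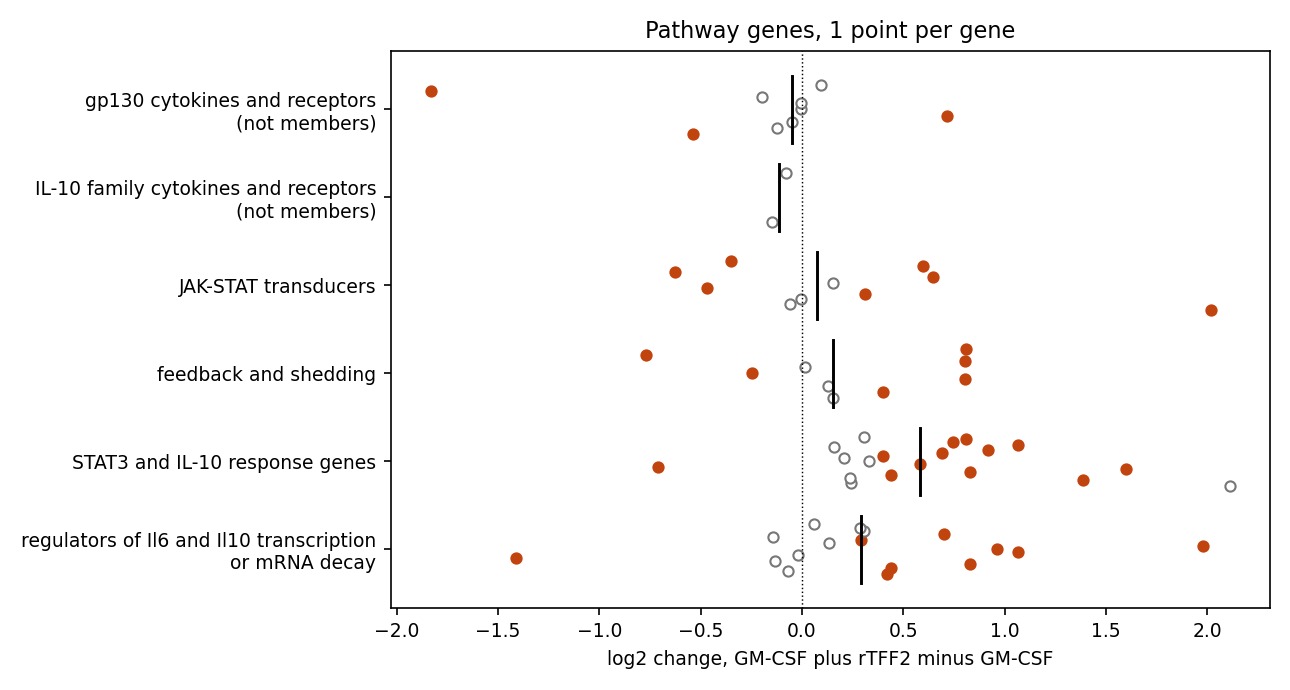
Log2 change with rTFF2 (less GM-CSF alone) of each measured gene of 6 pathway lists, 1 point per gene by its brightest probe set, filled where the adjusted p from the paired limma fit was under 0.05, with a bar at the median of the list. *Lifr* lies at -1.83, *Gab1* at 2.02, and the medians run from -0.11 to 0.58.

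The genes whose pattern over the 8 arrays was nearest to each called member were found by the root mean square difference of centred log2 values, among 7466 genes above background. Nearest to *Il6* were *Apoc2* (0.46 on the log2 scale), *Fcgr4* (0.53) and *Hilpda* (0.60). For *Il10rb* they were *Hexim1* (0.05), *Bst1* and *Stard8* (both 0.08). For *Il6ra* they were *Cyb5r1*, *1700094D03Rik* and *Mfsd5* (all 0.07), and for *Il6st* they were *St3gal6* (0.10), *Gdpd5* (0.12) and *Syce2* (0.14). The measure is a description of 8 arrays from 4 mice.

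Marker genes of several cell types moved with the groups, and their part in the changes of the cytokine and receptor genes was not tested. All 14 measured neutrophil genes rose, with log2 changes from 0.38 (*S100a8*) to 4.38 (*Ctsg*) and a median of 2.44. *S100a8* was bright in both groups, with means of 13.97 and 14.35. *Ctsg* went from a mean of 6.24 to 10.62, *Mmp9* from 10.47 to 12.01 and *Csf3r* from 6.07 to 8.46. Which cells these signals came from was not tested. The summed linear signal of the list was 38168 to 71199 with GM-CSF alone and 93096 to 108638 with rTFF2. Of 11 genes of basophils and mast cells, 8 rose, with sums of 211 to 517 and 4269 to 7834. *Mcpt8* went from a mean of 5.51 to 11.69, and *Fcer1a* from 2.30, at background, to 6.61. *Il4*, which is among these 8, had means of 2.22 and 3.03 and lay at background in both groups. So did *Cma1*, *Mcpt4* and *Tpsb2*, which encode proteases of mast cells. Of 6 eosinophil genes, 3 rose and 1 fell, with sums of 810 to 3293 and 4414 to 10884, and *Il5ra* and *Ccr3* lay at background. Among 13 markers of dendritic cells, MHC class II genes included, 12 fell, with sums of 33618 to 44174 and 8545 to 13068, and *Flt3* and *Cd209a* lay at background.

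Of 12 macrophage genes 4 rose and 3 fell, with sums of 18174 to 25167 and 23884 to 27556. The ranges overlapped, but within each mouse the sum was higher with rTFF2. For T and NK cells 11 of 12 genes lay at background, *Cd3d*, *Cd3e* and *Cd3g* among them, and 0 rose and 1 fell. For B and plasma cells 6 of 9 lay at background, *Cd79a* and *Ms4a1* among them, and 1 rose and 1 fell. The T and NK sum was lower with rTFF2 in each mouse, by little in mouse 2 (991 to 983). *Il7r* was the only gene of that list above background, so the sum does not describe the other 11. All 7 erythroid genes lay at background. Of 14 stromal and endothelial genes 3 rose and 2 fell, and 11 lay at background, *Col1a1* and *Dcn* among them. The sums were 285 to 350 with GM-CSF alone and 432 to 557 with rTFF2, and *Acta2* (0.76) and *Pecam1* (0.79) rose on the log2 scale. Only *Acta2*, *Pecam1* and *Vwf* were above background, so this sum does not describe the other 11 genes.

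**Figure D4:**
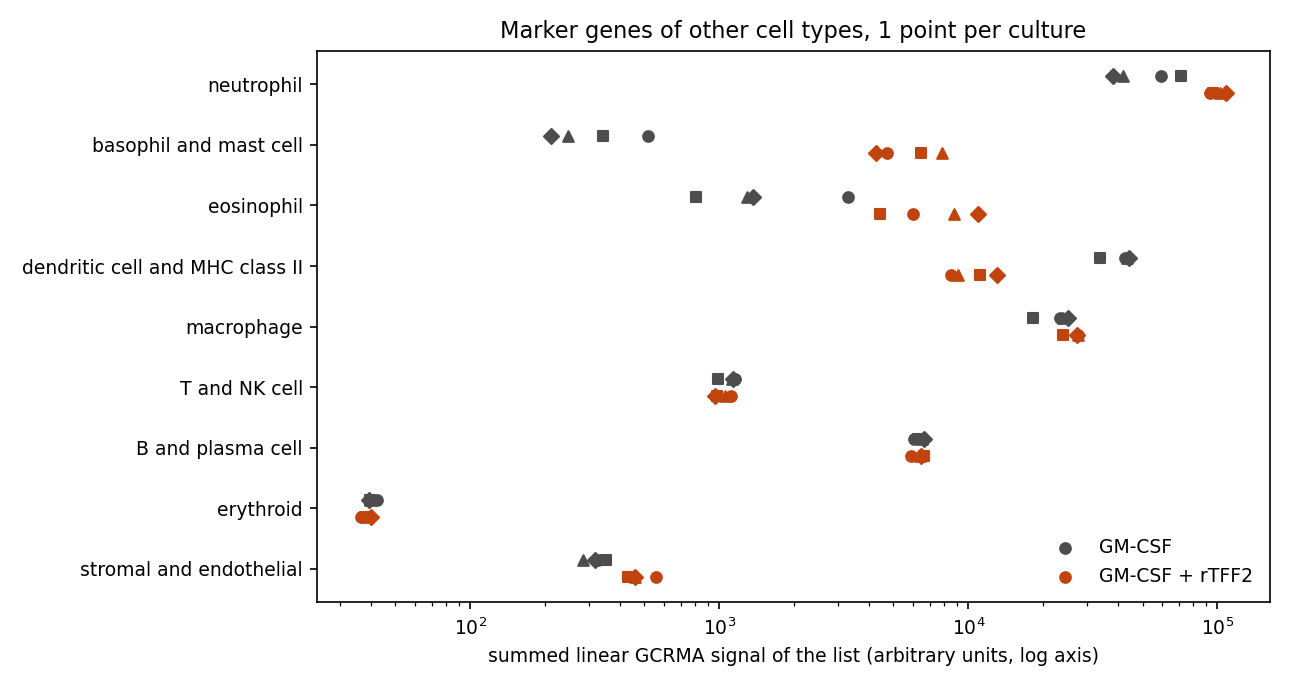
Summed linear GCRMA signal (arbitrary units, log axis) of the measured marker genes of 9 kinds of cell in each culture, grey for GM-CSF alone and orange for GM-CSF plus rTFF2, with the symbol giving the mouse (circle, square, triangle and diamond for mice 1 to 4). The groups are apart for neutrophil, basophil and mast cell, eosinophil, dendritic cell and stromal lists, and they overlap for the macrophage, T and NK, B and plasma, and erythroid lists. Within each mouse the macrophage sum is higher and the T and NK sum lower with rTFF2. *Il7r* is the only T and NK gene above background, and 11 of the 14 stromal and endothelial genes lie at background.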

How the data were processed

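RNA of 8 cultures was hybridized to Affymetrix mouse arrays, and the authors deposited GCRMA signals as log2 values, with versions 2.30.0 of GCRMA and 1.36.0 of affy listed in the submitters' processing notes. GCRMA corrects for background by base content, so folds of dim probe sets depend on it. Of 22690 probe sets 64 controls were left out, and the remaining 22626 entered a limma 3.58.1 fit (R 4.3.3) with the mouse as a fixed block. Symbols came from the platform annotation (20380 probe sets with 1 symbol, 691 with several, 1555 with none). A gene was represented by its brightest probe set. Promoters and coordinates came from RefSeq (GRCm38.p6), whose promoter table matched 4 of the 8 members.

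Cultures were paired by the number that ends their titles, which was taken as the number of the animal. Deviations from the group means correlated at 0.05, 0.54, 0.31 and 0.39 within mice 1 to 4 and at -0.54 to 0.34 between different mice, so mice 1 and 3 lay inside the latter range, and the pairing rests on the labels. In simulated data over 22626 probe sets with independent normal noise, 67, 67 and 66 were given log2 changes of 0.5, 1 and 2. The fit recovered 44.8%, 79.1% and 95.5% of them. Far fewer probe sets changed there than passed in the real data, so these shares need not hold for the calls given here.

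The members, gene lists and tests were chosen with earlier results of these data known. Named were all member probe sets, up to 4 called genes per pathway list and 2 per marker list by adjusted p, the 3 genes nearest in pattern to each called member, and check genes. Other genes, *S100a8* and most marker genes at background among them, were named after their values were seen. For macrophages and some other cell types the marker genes under the rule are given only within the counts. Alternatives were the fit without the block, a random mouse effect, a filter on dim probe sets, quantile normalization, median centring, an offset of 32, a trended and robust prior, array weights, the *Actb* covariate, leaving out each mouse, averaging a gene's probe sets, testing against a 2-fold change and a threshold of 0.01. A lone array adds nothing to a blocked fit, so mice were left out whole.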

Additional observations from a re-analysis of the deposited data

Results flagged for a closer look

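Of 39 sets of 4 values, namely both groups and the change in each mouse for 13 probe sets, 1 held a value far from the others. For an *Il10ra* probe set with group means of 2.78 and 2.84 the rTFF2 culture of mouse 3 had a log2 signal of 2.95, against 2.81 for the nearest culture, a gap of 0.901 of the range. Chance alone flags about 1 in 20 such sets, and the probe set lay at background in every culture.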

How the results depend on the processing

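Without the replicate block 4927 probe sets passed in place of 5811, with 3 member probe sets higher and 2 lower as before, and no member call changed. Median centring moved the share of called probe sets that were higher from 53.3% to 42.3% (a shift of -0.05 in all changes) and no member call. With the *Actb* covariate 1588 probe sets passed, as did 3 higher and 0 lower members by limma (2 lower at an unadjusted p under 0.05), 6 higher and 2 lower pathway genes, and *Il10* reversed to a log2 change of -0.087. The cause was not tested. With the offset 1 member probe set was lower. At a threshold of 0.01 these numbers were 2906 probe sets, 1 lower member and 5 lower pathway genes. Against a 2-fold change 173 probe sets, 1 higher member (*Il6*, adjusted p = 0.024), 0 lower members, 1 higher pathway gene and 0 lower ones passed by limma (0 and 2 lower at an unadjusted p under 0.05). Leaving out mice gave 3609 to 5006 probe sets, with 3609 without mouse 1 and 3791 without mouse 3, 2 to 3 higher and 1 to 2 lower members, 21 to 25 higher and 5 to 7 lower pathway genes, and log2 changes of -0.0065 (without mouse 1) to 0.16 for *Il10ra* and -0.095 to 0.052 (without mouse 4) for *Lif*. *Il6* and its direction passed in all 16 alternatives run, with adjusted p from 4.3e-04 to 0.024. The background level was 2.94 as the 90th percentile, which puts *Lif* above it, and 8.26 as the maximum (*Mbp*), which puts *Il6st* below it in both groups and *Il6* and *Il6ra* below it in the controls.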
